A study of Mus musculus with 12 samples.

Results

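The genes that write, copy, guard and erase DNA methylation in the mouse oocyte were followed through growth and maturation in WT and Zar1/2-null females. They are 10 of the 23230 genes in the deposited table and were picked by name, for what their proteins do: Dnmt3a, Dnmt3b, Dnmt3l and Kdm1b, Dnmt1 and Uhrf1, Dppa3, Zfp57 and Trim28, and Tet3. All 10 belonged to the 11502 genes kept for tests, those that reached 1 FPKM in some library. FPKM, the unit of the table, is the number of fragments corrected for transcript length and for sequencing depth. The authors had further scaled it by an ERCC spike-in, artificial RNAs put at 1 concentration into the lysis buffer of every sample.

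Zar1 and Zar2 (listed as Zar1l) encode oocyte RNA-binding proteins, and the study asked how their loss changes the oocyte transcriptome. The 6 groups were WT and Zar1/2-null oocytes at 3 stages, all from a C57BL6/ICR hybrid strain, with 2 libraries of 10 pooled oocytes per group made by Smart-seq2, which copies polyadenylated RNA. Growing oocytes came from 13.5-day-old females according to the labels (the study's methods give a younger age), fully grown oocytes with a germinal vesicle (GV) from 21-day-old females 44 h after PMSG, and ovulated oocytes, labelled MII, from oviducts 16 h after hCG. The null strain carries CRISPR/Cas9 deletions in both genes in every cell, and the study describes many of its ovulated oocytes as not having finished meiosis I, so the MII label names the time of collection. The labels do not say whether the 2 libraries of a group came from different females, and p-values measure only the spread between these libraries.

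DNA methylation is erased in the early germ line and written again in the growing oocyte. The de novo enzyme DNMT3A does this together with its catalytically inactive cofactor DNMT3L, and KDM1B removes the H3K4 methylation that would keep DNMT3L off chromatin. DNMT1 copies methylation at replication with the help of UHRF1, which can also be kept in the oocyte cytoplasm by DPPA3 (STELLA). After fertilization DPPA3 shields the maternal genome from oxidation by TET3, and ZFP57 with its partner TRIM28 holds methylation at imprinted regions.

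Zar1l fell from 642 ± 3.21 to 15.3 ± 3.04 FPKM in growing oocytes (SD, n = 2 each, as in all groups below), from 519 ± 20.8 to 20.3 ± 0.899 FPKM in GV oocytes and from 3.92 ± 1.12 to 1.19 ± 0.247 FPKM in MII oocytes. The Zar1 transcript was still counted in null oocytes (433 ± 37.3 FPKM in growing ones), so its level checks no label. The 10 oocyte markers examined summed to between 3330 and 16957 FPKM in a library. The 15 granulosa and cumulus markers summed to between 5.21 and 32.6 FPKM, highest in the WT growing libraries (29.3 and 32.6 FPKM). At most 5 of them reached 1 FPKM in a library of any group. Cyp19a1 and Nr5a2 did so in all 6 groups, and Fshr and Kitl in WT growing and WT GV oocytes. Inha did so in WT growing, null growing and null GV oocytes, and Ptx3 was listed at 0 in all 12 libraries. What part these cells had in any result below was not tested. The 5 immune markers summed to at most 3.07 FPKM. Cd68 reached 1 FPKM in null growing, WT GV and null GV oocytes, and Cd52 and Tyrobp were at 0. The ERCC factor by which a library had been multiplied was 1 in WT growing oocytes and as low as 0.225 at MII, so 1 FPKM in that library stood for 4.45 FPKM before scaling. In pooled oocytes, fewer cells and less RNA per cell cannot be told apart.

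Maternal transcripts are stored and later translated or removed through their 3′ ends, so the ends of the members' longest annotated 3′ UTRs were read from the mm9 genome with the GENCODE M1 gene models. The last 100 bases were searched on the transcript's own strand for a cytoplasmic polyadenylation element (CPE, TTTTAT or TTTTAAT) and for a poly(A) signal (AATAAA or ATTAAA). A CPE was found in 3 of the 10 members, and in 19.7% of the 10193 kept genes with a 3′ UTR of at least that length. The first 3 windows below hold these elements. In Tet3 the element TTTTAAT overlaps an AATAAA. The last 3 are the poly(A) signals of the most abundant member, of Zfp57 and of Uhrf1, and no CPE was found near any of them. Capitals mark the motif letters, and each window is written 5′ to 3′ on the strand of the gene.
Dnmt3a, chr12:3914377-3914406 (+): tgtttatatataTTTTATtttcgctataaa
Dnmt1, chr9:20711683-20711712 (-): gacttgatgtagTTTTATatgttgtaatat
Tet3, chr6:83312385-83312414 (-): atattgtgggtgTTTTAATAAATTTTATat
Dppa3, chr6:122580260-122580289 (+): ccagaaatttgtAATAAAagcatttttgtt
Zfp57, chr17:37147520-37147549 (+): cccaccccacaaAATAAAtacaatttttaa
Uhrf1, chr17:56462878-56462907 (+): atattgcAATAAAATAAAattctggccggg
A poly(A) signal was found in 9 of the 10 members and in 78.8% of the 10193 genes. The last 100 bases of Dnmt3l held neither motif. The match of letters is a description, and which 3′ end the oocyte uses was not measured.

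The levels of the 10 genes spanned more than 3 orders of magnitude in FPKM, which is corrected for transcript length. Dppa3 was highest in all 6 groups, ranking between 9 and 20 among the 11502 kept genes. Its 2 WT growing libraries had 3418 and 3258 FPKM, and its mean made up 69.2% of the summed FPKM of the 10 genes there and 87.6% in WT MII oocytes. Zfp57, a zinc finger protein that recognises methylated imprinted regions, was second in 5 of the 6 groups. In Zar1/2-null MII oocytes it stood behind Dnmt3l, Uhrf1 and Dnmt1, with no overlap between its libraries and theirs. Dnmt3b, the second de novo enzyme, was lowest in all 6 groups and never above 3.44 FPKM. In WT growing oocytes no neighbours in the order of levels overlapped, with Dppa3 and Zfp57 followed by Dnmt1, Uhrf1, Dnmt3l, Kdm1b, Tet3, Trim28, Dnmt3a and Dnmt3b. Elsewhere some neighbours did not differ beyond their spread. These were Uhrf1, Dnmt1 and Kdm1b, and Tet3 and Trim28, in null growing oocytes, and Dnmt3l, Tet3 and Kdm1b in WT GV oocytes. In null GV oocytes they were Dnmt1 and Uhrf1, and Dnmt3l and Kdm1b. At MII they were Uhrf1 and Dnmt1, and Dnmt3a and Dnmt3l, in WT and Trim28 and Kdm1b in null oocytes. Dnmt1 is known to use an oocyte-specific first exon, and the transcript forms of a gene are not separated in a gene-level FPKM.

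**Figure D1:**
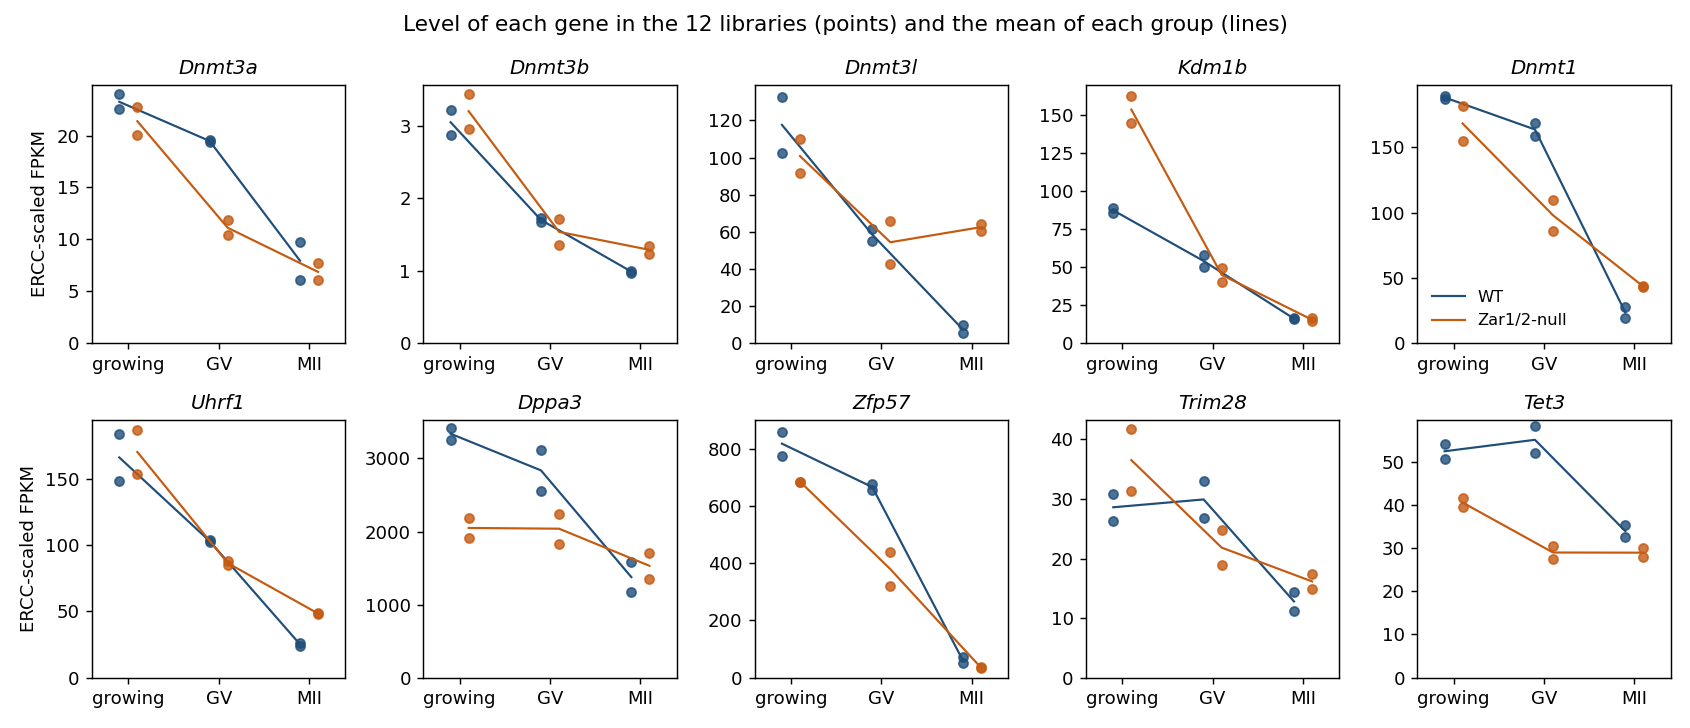
ERCC-scaled FPKM (vertical axes, each from 0) of the 10 genes by stage (horizontal axes). Points are the 2 libraries of a group and lines join the group means of WT (blue) and Zar1/2-null (orange) oocytes. Dnmt3l stood at 64.4 and 60.5 FPKM in the null MII libraries and at 5.15 and 9.56 FPKM in WT.

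The genotypes were compared stage by stage in a limma model of all 12 libraries on the log2(FPKM + 1) scale, because the smallest p of an exact permutation test between pairs of libraries is 0.333. A gene was called at a Benjamini-Hochberg adjusted p under 0.05 over all kept genes. Adding 1 FPKM understates the change of low genes, Dnmt3b above all. In growing oocytes Kdm1b rose and Dppa3 fell, 1 member each, where 10.6% of all genes were called higher and 24.4% lower in Zar1/2-null oocytes. In GV oocytes 4 members fell (Tet3, Zfp57, Dnmt3a and Dnmt1), where 40.6% of all genes were called lower and 2.83% higher. The count of members higher there was 0 by limma, and also 0 at an unadjusted p under 0.05. In MII oocytes Dnmt3l, Uhrf1 and Dnmt1 rose and Zfp57 fell, where 21.5% of all genes were called higher and 10.3% lower. The share of members lower at the GV stage was thus close to that of all genes. Both null libraries lay above both WT libraries for 2 members in growing oocytes and below them for 4, where this held for 22.4% and 47.4% of all genes. The counts were 0 and 8 in GV oocytes (6.79% and 63.6% of all genes) and 5 and 2 in MII oocytes (43.5% and 27.8%). The median log2 difference of the 10 genes was -0.14 in growing, -0.46 in GV and 0.18 in MII oocytes, beside -0.16, -0.38 and 0.06 over all kept genes. The 3 comparisons use different libraries but share the estimate of the spread.

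Removing the ERCC factors moved the median of all genes at the GV stage from -0.38 to -0.03 and in growing oocytes from -0.16 to 0.08. The shares of all genes called higher and lower were then 14.4% and 11.7% in growing, 7.26% and 13.1% in GV and 23.9% and 22.7% in MII oocytes. With each library set to the same median level they were 12.9% and 12.2%, 8.68% and 11.6%, and 24.4% and 31.3%. Among the members, Tet3 was the only one called at the GV stage without the factors. With median scaling 0 were called there by limma, and 1 at an unadjusted p under 0.05. At MII the 4 members Dnmt3l, Dnmt1, Uhrf1 and Zfp57 were called in the same direction with the factors, without them and with median scaling. Tet3 was called lower both without the factors and with median scaling, and median scaling added Dnmt3a and Kdm1b as lower. Kdm1b was called higher in growing oocytes under all 3 scalings, while Dppa3 was called lower there only with the ERCC factors.

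**Figure D2:**
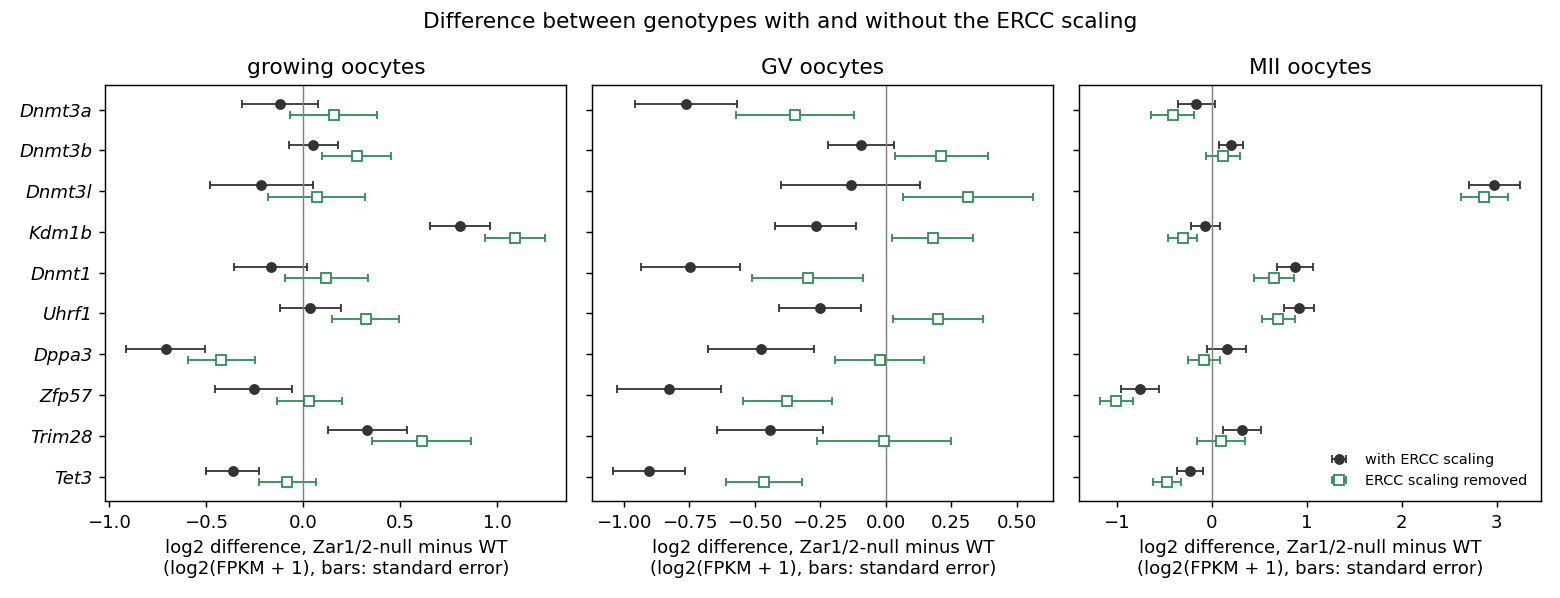
Log2 difference between Zar1/2-null and WT oocytes (horizontal axes, log2(FPKM + 1), different ranges) for the 10 genes at 3 stages, with the ERCC scaling (filled circles) and with it removed (open squares). Bars are standard errors. At the GV stage removing the scaling shifts all 10 genes to the right, and at MII Dnmt3l stands at 2.98 and 2.87.

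Dnmt3l (chromosome 10 of mm9, 77504692 to 77526367, plus strand) showed the largest difference of the 10 genes at any stage. In growing oocytes it had 102 and 133 FPKM in the WT pair and 109.9 and 91.6 FPKM in the Zar1/2-null pair, which overlap, and at the GV stage 61.6 and 55.2 against 42.7 and 65.9 FPKM, which overlap too. At MII the WT libraries had 5.15 and 9.56 FPKM and the null libraries 64.4 and 60.5 FPKM. The groups were far apart at MII alone. The means there, 7.35 ± 3.12 and 62.4 ± 2.79 FPKM, differed 8.49-fold, and 7.20-fold without the ERCC factors. The log2 difference was 2.98 (standard error 0.27, limma, Benjamini-Hochberg adjusted p = 5.47e-06), above that of 97.7% of all kept genes, and leaving out each library in turn gave 2.59 to 3.37. Dnmt3l was the member more than 3-fold apart between the genotypes, 1 of 10, where 7.49% of all genes were more than 3-fold higher at MII and 1.32% more than 3-fold lower. In growing and GV oocytes 0 members were that far apart, where 3.54% and 4.2% of all genes were more than 3-fold lower and 0.982% and 0.461% higher. The 95% intervals of its log2 difference were -0.80 to 0.37 in growing and -0.72 to 0.45 in GV oocytes, so that changes of this size up or down were not resolved there.

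Aire, a transcription factor gene on the other strand, starts inside Dnmt3l, and 67 exon bases (2.24% of those of Dnmt3l) are shared. Smart-seq2 libraries do not keep the strand, so reads from the shared bases cannot be told apart. At MII, Aire stood at 0.228 ± 0.0893 FPKM in the WT and at 5.06 ± 0.422 FPKM in the null libraries, which did not overlap. Its log2 difference was 2.30 (standard error 0.17, limma, Benjamini-Hochberg adjusted p = 1.29e-06). In growing oocytes it had 7.61 ± 0.767 and 7.42 ± 0.753 FPKM, and at the GV stage 4.71 ± 0.921 and 4.90 ± 1.15 FPKM. Aire moved with Dnmt3l at MII, and its part in that result was not tested.

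Kdm1b (chromosome 13, 47138868 to 47179982, plus strand), the H3K4 demethylase of the oocyte, differed in growing oocytes. The WT libraries had 85.6 and 88.9 FPKM and the null libraries 145 and 162 FPKM. Both null libraries lay above both WT libraries, and the means, 87.3 ± 2.36 and 154 ± 12.4 FPKM, differed 1.76-fold (log2 difference 0.81, standard error 0.15, limma, Benjamini-Hochberg adjusted p = 0.00232). With the ERCC factors removed, the ratio of the means was 2.16. Its GV libraries had 58.0 and 49.8 against 49.4 and 40.2 FPKM, and its MII libraries 15.5 and 16.4 against 16.1 and 14.4 FPKM. Its log2 differences there, -0.27 and -0.06, did not pass the test (limma, Benjamini-Hochberg adjusted p = 0.18 and 0.836). From growing to GV oocytes its genotype difference changed by -1.07 (standard error 0.22, limma interaction, Benjamini-Hochberg adjusted p = 0.0113), 1 member called lower by this test, where 11.3% of all genes were called lower and 2.58% higher. Tpmt, which overlaps its start on the other strand, has no exon base in common with it and stood at 48.4 ± 0.267 and 57.2 ± 7.21 FPKM in WT and null growing oocytes.

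Dnmt3a (chromosome 12, 3806007 to 3914443, plus strand), the enzyme that DNMT3L assists, had 19.6 and 19.3 FPKM in the WT and 10.4 and 11.8 FPKM in the null GV libraries, which do not overlap. The log2 difference was -0.76 (standard error 0.19, limma, Benjamini-Hochberg adjusted p = 0.00942), and -0.35 without the ERCC factors, where the call was lost (limma, Benjamini-Hochberg adjusted p = 0.321). The call was also lost without the first WT or the first null GV library (limma, Benjamini-Hochberg adjusted p up to 0.057). In growing oocytes its libraries had 22.5 and 24.0 against 20.03 and 22.7 FPKM, and at MII 6.09 and 9.77 against 6.03 and 7.66 FPKM, with overlap at both stages. Dnmt3b lay between 0.972 and 3.44 FPKM in all 12 libraries, and its genotype differences of 0.05, -0.09 and 0.20 on the log2 scale did not pass the test at any stage. Gm10485 overlaps Dnmt3a with 133 shared exon bases and was never above 0.561 FPKM.

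Dnmt1 (chromosome 9, 20711650 to 20757317, minus strand), the maintenance enzyme, changed in opposite directions at GV and MII. Its GV libraries had 159 and 169 FPKM in WT and 110.1 and 85.9 FPKM in null oocytes, and its MII libraries 19.3 and 27.6 against 43.1 and 43.4 FPKM. The genotypes did not overlap at either stage, with null oocytes lower at GV and higher at MII. The log2 differences were -0.75 and 0.88 (standard error 0.19 each, limma, Benjamini-Hochberg adjusted p = 0.00872 and 0.00384). The change between the stages was 1.62 (standard error 0.27, limma interaction, Benjamini-Hochberg adjusted p = 8.95e-04). With the factors removed, the GV difference was -0.30 and not called, and the MII difference 0.66 and called (limma, Benjamini-Hochberg adjusted p = 0.369 and 0.0239). The GV call was lost without the second null GV library (limma, Benjamini-Hochberg adjusted p = 0.0578). In growing oocytes Dnmt1 had 189 and 187 FPKM in WT and 155 and 182 FPKM in null libraries, with no overlap, a difference of -0.17 that did not pass the test.

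Uhrf1 (chromosome 17, 56442744 to 56462909, plus strand), which recruits DNMT1 to hemimethylated DNA, rose at MII as well. The WT libraries had 23.7 and 26.5 FPKM and the null libraries 47.7 and 48.9 FPKM, with no overlap. The means differed 1.93-fold (log2 difference 0.92, standard error 0.16, limma, Benjamini-Hochberg adjusted p = 8.60e-04). At the GV stage the libraries had 103 and 102 against 87.6 and 85.0 FPKM, and in growing oocytes 148 and 183 against 154 and 186 FPKM. Neither difference, -0.25 and 0.04, passed the test. The ratio of Uhrf1 to Dnmt1 within a library was 0.881 ± 0.139 in WT and 1.01 ± 0.0223 in null growing oocytes. In GV oocytes it was 0.628 ± 0.0313 and 0.893 ± 0.137. The genotypes did not overlap at either of these stages, with null oocytes higher. At MII, where they overlapped, the ratio was 1.09 ± 0.188 in WT and 1.12 ± 0.0129 in null oocytes.

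Dppa3 (chromosome 6, 122576428 to 122580290, plus strand) was lower in null growing oocytes. The WT libraries had 3418 and 3258 FPKM and the null libraries 2186 and 1911 FPKM. They did not overlap, and the log2 difference was -0.71 (standard error 0.20, limma, Benjamini-Hochberg adjusted p = 0.0197). Without the ERCC factors it was -0.42, and the call was lost (limma, Benjamini-Hochberg adjusted p = 0.0934). Leaving out either WT growing library or the second null growing library also ended the call (limma, Benjamini-Hochberg adjusted p up to 0.126). At the GV stage the libraries had 3115 and 2558 against 2245 and 1832 FPKM (log2 difference -0.48, limma, Benjamini-Hochberg adjusted p = 0.0776). At MII, where they overlapped, they had 1584 and 1168 against 1713 and 1349 FPKM, a log2 difference of 0.16 with a 95% interval of -0.29 to 0.61.

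Zfp57 (chromosome 17, 37138108 to 37147580, plus strand) was lower in null oocytes at both later stages. Its GV libraries had 678 and 654 FPKM in WT and 321 and 438 FPKM in null oocytes, and its MII libraries 51.1 and 72.2 against 38.6 and 33.0 FPKM. The genotypes were separate at either stage, with null oocytes lower. The log2 differences were -0.83 and -0.75 (standard error 0.20 each, limma, Benjamini-Hochberg adjusted p = 0.00686 and 0.0132). On the unscaled values they were -0.38, no longer called, and -1.002, still called (limma, Benjamini-Hochberg adjusted p = 0.148 and 5.17e-04). The MII call was lost without the second WT or the second null MII library (limma, Benjamini-Hochberg adjusted p up to 0.131), and the GV call without the first null GV library (limma, Benjamini-Hochberg adjusted p = 0.059). In growing oocytes it had 775 and 860.0 against 685 and 685 FPKM, with no overlap, but the difference of -0.25 did not pass the test. At MII, 5.16% of all kept genes had a lower log2 difference than Zfp57.

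Trim28 (chromosome 7, 13609501 to 13616384, plus strand), the corepressor that ZFP57 brings to imprinted regions, did not pass the test between genotypes at any stage. Its growing libraries had 26.3 and 30.9 FPKM in WT and 31.3 and 41.8 FPKM in null oocytes, its GV libraries 26.8 and 33.1 against 24.7 and 18.9 FPKM, and its MII libraries 11.3 and 14.3 against 14.9 and 17.4 FPKM. The groups do not overlap at any stage, with null oocytes higher in growing and MII and lower in GV libraries. The log2 differences were 0.33, -0.44 and 0.32 with 95% intervals of -0.12 to 0.78, -0.89 to 0.01 and -0.13 to 0.77. With median scaling the GV difference was 0.05 and the MII difference -0.02, so their direction depends on the scaling.

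Tet3 (chromosome 6, 83312367 to 83391672, minus strand), the oocyte's 5-methylcytosine dioxygenase, had the clearest difference at the GV stage. The WT libraries had 58.2 and 52.0 FPKM and the null libraries 30.4 and 27.5 FPKM. With no overlap, the means differed 1.90-fold (log2 difference -0.90, standard error 0.14, limma, Benjamini-Hochberg adjusted p = 5.19e-04). Leaving out each library in turn gave -0.98 to -0.82 and kept the call, and removing the ERCC factors gave -0.46 (limma, Benjamini-Hochberg adjusted p = 0.0451). With median scaling it was -0.40 and not called (limma, Benjamini-Hochberg adjusted p = 0.0682). In growing oocytes Tet3 had 54.2 and 50.6 against 39.5 and 41.5 FPKM (log2 difference -0.36, limma, Benjamini-Hochberg adjusted p = 0.0616, with 0.0253 to 0.723 over the alternatives), and at MII 32.6 and 35.2 against 27.9 and 30.03 FPKM (-0.22, limma, Benjamini-Hochberg adjusted p = 0.266). The growing difference was called with no filter, without the intensity trend and without either null GV library. The null libraries were below the WT libraries at all 3 stages, but the MII difference was called only without the ERCC factors (-0.47, limma, Benjamini-Hochberg adjusted p = 0.022) or with median scaling (-0.59, limma, Benjamini-Hochberg adjusted p = 0.00406).

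The same libraries also give the level of each transcript at MII beside its GV level. These are levels of copied polyadenylated RNA, and the part that changes in tail length had in them was not tested. In WT oocytes all 10 members fell from GV to MII on the ERCC scale, where 93.4% of all genes were called lower and 0.104% higher, with a median log2 difference of -1.28. Zfp57, Dnmt3l and Dnmt1 kept the smallest part of their mean GV level, 9.26%, 12.6% and 14.3%, followed by Uhrf1 with 24.4% and Kdm1b with 29.6%. Tet3 and Dnmt3b kept 61.6% and 58.0%. In null oocytes 5 members fell (Dnmt3a, Kdm1b, Dnmt1, Uhrf1 and Zfp57), where 68.7% of all genes were called lower and 0.209% higher, with a median of -0.72. The count of members higher was 0 by limma in both genotypes, and also 0 at an unadjusted p under 0.05. The call of Dnmt3a in null oocytes was lost without the second null GV or the first null MII library (limma, Benjamini-Hochberg adjusted p up to 0.104). Zfp57 again kept 9.45% there, while Dnmt3l stood at 115% and Tet3 at 99.9% of the GV level. For Dnmt3l the null difference was 0.23 (standard error 0.27, limma, Benjamini-Hochberg adjusted p = 0.456) beside -2.88 in WT.

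The interaction tested whether the genotype difference changed from GV to MII. It was 3.11 for Dnmt3l (standard error 0.38, limma, Benjamini-Hochberg adjusted p = 1.00e-04), 1.17 for Uhrf1 (standard error 0.22, limma, Benjamini-Hochberg adjusted p = 0.00232) and 0.68 for Tet3 (standard error 0.19, limma, Benjamini-Hochberg adjusted p = 0.0205). With Dnmt1, 4 members were called higher, where 33.9% of all genes were called higher and 0.643% lower, with a median of 0.48. For Zfp57 the interaction was 0.08 with a 95% interval of -0.54 to 0.70, and with median scaling it was called lower (-0.81, limma, Benjamini-Hochberg adjusted p = 0.0200). For Kdm1b, at 0.20, it was called lower with median scaling too (-0.66, limma, Benjamini-Hochberg adjusted p = 0.0387). The comparisons on both sides of it share the GV libraries. On other scalings the fall of several members from GV to MII turned: without the ERCC factors WT oocytes had 3 members called lower (Dnmt3l, Dnmt1 and Zfp57) and 3 called higher (Dnmt3b, Dppa3 and Tet3), where 46.1% of all genes were lower and 19.2% higher. Null oocytes then had 2 called lower (Kdm1b and Zfp57) and 4 called higher (Dnmt3l, Dnmt3b, Dppa3 and Tet3), where 39.3% of all genes were lower and 18.8% higher. The interaction of Dnmt3l was 2.56 without the factors and 2.36 with median scaling, and called in both, while that of Uhrf1 (0.50 and 0.32) was called in neither. That of Dnmt1 was called without the factors (0.96) and not with median scaling (0.77), and that of Tet3 was called in neither (-0.00 and -0.19). The interaction thus called 2 members higher without the factors, where 14.3% of all genes were called higher and 6.17% lower. With median scaling it called 1 higher and 2 lower, where 14.9% and 14.1% of all genes were.

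**Figure D3:**
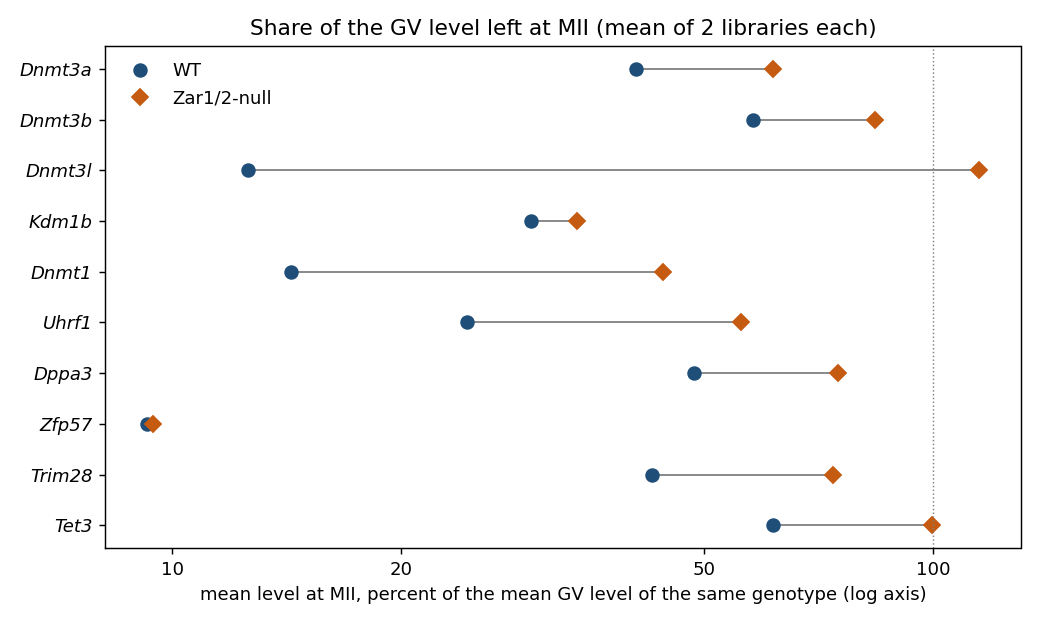
Mean ERCC-scaled FPKM at MII as a percent of the mean at the GV stage of the same genotype (horizontal axis, log scale) for the 10 genes, each a mean of 2 libraries. Circles are WT and diamonds Zar1/2-null oocytes. Zfp57 lies at 9.26% and 9.45%, and Dnmt3l at 12.6% and 115%.

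During growth, from growing to GV oocytes, Dnmt3b, Dnmt3l, Kdm1b and Uhrf1 fell in WT, where 28.7% of all genes were called lower and 2.77% higher. Dnmt3l went from 118 ± 21.5 to 58.4 ± 4.55 FPKM and Kdm1b from 87.3 ± 2.36 to 53.9 ± 5.78 FPKM. In null oocytes 9 members fell, where 55.9% of all genes did and 4.76% rose, and Kdm1b fell most, from 154 ± 12.4 to 44.8 ± 6.49 FPKM (log2 difference -1.76, standard error 0.15, limma, Benjamini-Hochberg adjusted p = 9.24e-06). Dppa3, at 2049 ± 194 and 2038 ± 292 FPKM, was the exception. The WT calls of Dnmt3l, Kdm1b and Uhrf1 were lost without the second WT growing or the second WT GV library, and that of Dnmt3l also without the first WT GV library (limma, Benjamini-Hochberg adjusted p up to 0.136). In null oocytes those of Dnmt3l, Trim28 and Tet3 were lost without 1 library: the first growing or first GV library for Dnmt3l, the second growing or second GV library for Trim28, and the second growing library for Tet3 (limma, Benjamini-Hochberg adjusted p up to 0.119). With the ERCC factors removed, 0 members were called by limma in WT, and 2 passed an unadjusted p under 0.05, where 3.5% of all genes were called higher and 3.0% lower. In null oocytes Kdm1b (-1.22) was then the member still called lower, and Dppa3 was called higher (0.54), where 20.5% of all genes were called lower and 14.2% higher.

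Ratios between members within a library do not depend on any scaling factor, since it multiplies both genes. With 2 libraries per group they are given as values without a test. Dnmt3l to Dnmt3a, the cofactor per enzyme transcript, was 5.04 ± 0.699 in WT and 4.76 ± 1.03 in null growing oocytes, and 2.998 ± 0.206 and 4.84 ± 1.02 at the GV stage. At MII it was 0.913 ± 0.0938 in WT and 9.28 ± 1.97 in null oocytes, the lowest and the highest of the 6 groups. The group means of Dnmt3l to Zfp57 lay between 0.0877 and 0.147 in 5 groups, and the mean was 1.75 ± 0.113 in null MII oocytes. At the GV stage this ratio was 0.0877 ± 0.00467 in WT and 0.142 ± 0.0123 in null oocytes, with no overlap. Kdm1b to Dnmt3l was 0.753 ± 0.117 in WT and 1.55 ± 0.322 in null growing oocytes, and 2.37 ± 0.915 and 0.244 ± 0.00868 at MII, with overlapping libraries at the GV stage (0.922 ± 0.0271 and 0.883 ± 0.386). Dnmt1 to Tet3, maintenance against oxidation, was 3.60 ± 0.143 and 4.15 ± 0.324 in growing, 2.99 ± 0.367 and 3.37 ± 0.350 in GV and 0.687 ± 0.134 and 1.496 ± 0.0714 in MII oocytes. Zfp57 to Trim28 was 28.7 ± 1.11 in WT growing and 4.79 ± 0.356 in WT MII oocytes, against 19.2 ± 3.90 and 2.24 ± 0.493 in the null groups. Its GV libraries overlapped, at 22.6 ± 3.91 and 18.05 ± 7.19. Dppa3 to Uhrf1 was 20.4 ± 3.74 and 12.2 ± 2.80 in growing and 55.5 ± 16.1 and 31.7 ± 5.86 in MII oocytes, and overlapped in GV oocytes, at 27.6 ± 3.64 and 23.6 ± 2.87.

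**Figure D4:**
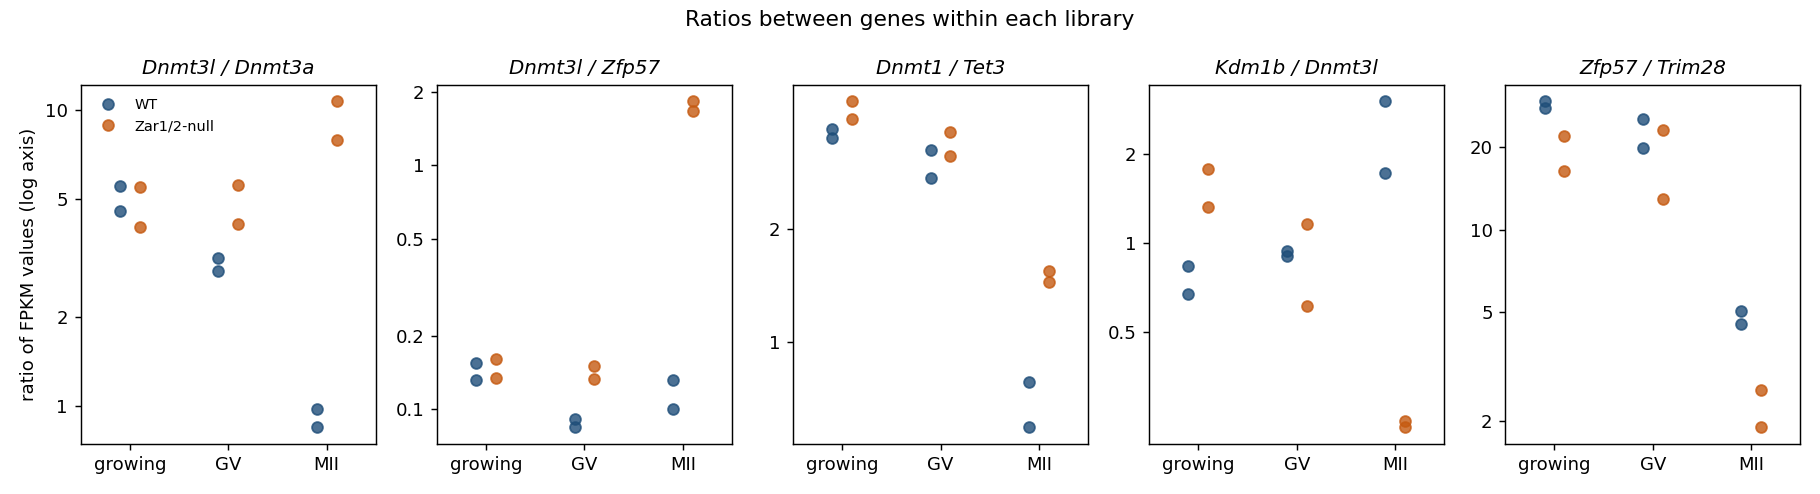
Ratio of the FPKM values of 2 genes within each library (vertical axes, log scale, different ranges) by stage, for 5 pairs. Points are the 2 libraries of WT (blue) and Zar1/2-null (orange) groups. At MII the genotypes are apart in all 5 pairs, with Dnmt3l to Dnmt3a at 0.913 on average in WT and 9.28 in null oocytes.

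The 10 genes work with other proteins, and 6 lists of these were examined: maintenance partners, the histone marks that guide de novo methylation, demethylation and base excision, methyl-CpG readers, imprint protection partners and methyl donor supply. Of 60 genes, 53 could be tested. In growing oocytes 6 were called higher and 8 lower, in GV oocytes 0 and 29 (0 and 32 at an unadjusted p under 0.05), and in MII oocytes 5 and 12, beside the shares of all genes given above. The median log2 differences were -0.08, -0.45 and -0.08. On the scale without ERCC factors 8 were called higher and 3 lower in growing oocytes (median 0.16), 1 higher and 11 lower at the GV stage, and 6 higher and 19 lower at MII. With median scaling, where 49 could be tested, 6 were higher and 4 lower, 1 higher and 10 lower, and 5 higher and 25 lower. At the GV stage, where 40.6% of all genes were called lower, 7 of 10 maintenance partners and 2 of 9 genes of the histone marks were. The counts were 6 of 8 for demethylation and base excision and 2 of 5 for methyl-CpG readers. They were 8 of 12 for imprint protection partners and 4 of 9 for methyl donor supply. At MII the imprint protection partners had 3 called higher (Cbx3, Rbbp4 and Nlrp2) and 4 lower (Setdb1, Ctcf, Smchd1 and Rnf2) of 12 tested. Of all genes, 21.5% were called higher there and 10.3% lower.

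The named partners are those called with more than 3-fold between the means. Rnf2, a Polycomb ubiquitin ligase, stood at 44.8 ± 4.44 in WT and 9.77 ± 1.35 FPKM in null GV oocytes, and at 19.6 ± 1.24 and 3.38 ± 0.144 FPKM at MII (log2 difference -2.23, limma, Benjamini-Hochberg adjusted p = 3.56e-07). Mat2a, which makes the methyl donor S-adenosylmethionine, had 22.5 ± 3.93 and 4.35 ± 1.59 FPKM at the GV stage and 8.40 ± 0.0638 and 1.25 ± 0.0805 FPKM at MII (-2.06, limma, Benjamini-Hochberg adjusted p = 1.15e-05). Hells (LSH), a remodeller needed for DNA methylation at repeats, had 38.2 ± 3.55 and 10.7 ± 0.487 FPKM at the GV stage and 24.5 ± 1.68 and 5.95 ± 0.371 FPKM at MII (-1.88, limma, Benjamini-Hochberg adjusted p = 1.36e-06). For these 3 genes neither stage had overlapping libraries, and the calls held under all 3 scalings.

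At the GV stage Ogt, a TET partner that adds N-acetylglucosamine, Cdca7, which works with HELLS, and Zbtb33, a methyl-CpG reader, were lower in null oocytes too. Ogt had 10.8 ± 1.34 against 3.24 ± 0.107 FPKM, Cdca7 3.06 ± 0.851 against 0.686 ± 0.211 FPKM and Zbtb33 4.96 ± 0.189 against 1.63 ± 0.555 FPKM. In growing oocytes Nsd1, an H3K36 methyltransferase, had 10.1 ± 0.463 FPKM in WT and 2.73 ± 0.0942 FPKM in null libraries (-1.58, limma, Benjamini-Hochberg adjusted p = 2.53e-05). Mbd3, a subunit of the NuRD complex, rose more than 3-fold, from 0.603 ± 0.138 to 3.91 ± 0.231 FPKM at MII (1.62, limma, Benjamini-Hochberg adjusted p = 4.08e-05). All 5 differences were called under all 3 scalings. Without passing 3-fold, Nsd1 was also lower at GV (-1.20) and MII (-0.73), Ogt in growing (-0.75) and MII oocytes (-1.26), and Zbtb33 at MII (-0.67). These too were called under all 3 scalings. Zbtb33 in growing oocytes, and Cdca7 and Mbd3 at their other stages, were not called with the ERCC factors. Setd2, the H3K36 methyltransferase known to direct de novo methylation in the oocyte, was called higher in null growing oocytes (0.96, standard error 0.20, limma, Benjamini-Hochberg adjusted p = 0.00381). It was named after its value was seen.

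The genes most like each member over the 12 libraries were found by Pearson's r of log2(FPKM + 1), among 5827 genes whose mean reached 10 FPKM in some group. The values were ERCC-scaled, where 93.4% of all genes were called lower at MII than at GV in WT, and such shared differences enter every r. High values were common: 1862 genes had r above 0.95 with Zfp57 and 1247 with Dnmt1. The count was 130 for Dnmt3l, 30 for Tet3, 28 for Trim28 and 15 for Dppa3. The nearest genes of Dnmt3l were Mapk3 (r = 0.9904), Paox and Aldh2, and those of Kdm1b were Impdh2 (0.993), Itgb1 and Tfam. Dppa3 was nearest to Luc7l3 (0.977), Gm3143 and Rps15a, and Tet3 to BC016423 (0.976), Zfp664 and Nup153. Between members, Dnmt3a and Dnmt3l had r = 0.653 and Dnmt3a and Dnmt3b r = 0.840 over the 12 libraries.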

How the data were processed

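According to the methods and the submitters' processing notes, the authors trimmed reads to 50 bases, aligned them to mm9 with TopHat2 2.1.1, kept unique alignments and ran Cufflinks 2.2.1 on UCSC gene models. The authors deposited FPKM values of 23230 genes in 12 libraries, each multiplied by a factor from the ERCC share of its library. The factors were recovered here, since all values return to 6 significant digits when they are divided out. The table holds no counts, so the depth behind a value is unknown and no interval for counting error is given. On average over the 12 libraries 33.5% of the values are listed at 0, none of them from the 10 genes.

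Samples were grouped by the genotype, stage and replicate number in their titles. Genes that reached 1 FPKM in some library were kept. The model was built in limma 3.58.1 under R 4.3.3 on the log2(FPKM + 1) scale, gave each of the 6 groups its own mean and used eBayes with an intensity trend. Benjamini-Hochberg adjustment ran over the 11502 genes within each of 9 contrasts, and the fit was tested on simulated data. For the genotypes at the GV stage it recovered 70% of the simulated 2-fold and 96% of the 4-fold changes. Of its calls 5.14% were false. Only 200 of 11502 genes were changed, all above a set level in WT GV oocytes that leaves out Dnmt3b. The noise was independent between libraries, with no error of scaling. In the data 40.6% of all genes were called lower there and 2.83% higher, so these rates need not hold for them. Differences under 2-fold were not simulated. Folds of means, with a floor of 1 FPKM, are a description. Named genes were the 10 members, the targeted genes, up to 8 genes of the wider lists called and more than 3-fold apart between genotypes, and the 3 genes nearest to a member. Aire, Tpmt, Gm10485 and Setd2 were named after their values were seen. The members and lists were chosen with earlier results of these data known. The alternatives tried were dropping the ERCC factors, median scaling, 1 mean factor per group, a pseudocount or floor of 0.1 FPKM, a mean of at least 5 FPKM, no filter, a replicate block, fits on the compared libraries alone, eBayes without trend and leaving out each library.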

Additional observations from a re-analysis of the deposited data

Results flagged for a closer look

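For 5 results the genotype difference was not the same at neighbouring stages by an interaction test (limma, Benjamini-Hochberg adjusted p under 0.05). The difference of Kdm1b went from 0.81 in growing to -0.27 in GV oocytes, a change of -1.07. It was -0.91 and still called without the ERCC factors, and not called with median scaling (-0.81). From GV to MII the difference of Dnmt3l changed by 3.11, that of Dnmt1 by 1.62, that of Uhrf1 by 1.17 and that of Tet3 by 0.68. In both null libraries at MII, Dnmt3l, Dnmt1 and Uhrf1 were above both WT libraries, whereas Tet3 was below them at GV and MII. The median change over all kept genes from GV to MII was 0.48. The change of Tet3 was -0.0010 without the ERCC factors, and it was no longer called without any of 3 single libraries (the first WT GV, the first WT MII and the second null MII library; limma, Benjamini-Hochberg adjusted p up to 0.0667).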

How the results depend on the processing

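The scaling moved most calls. Without the ERCC factors the number of members called between genotypes was 1 in growing and 1 in GV oocytes, and with median scaling 1, 0 and 7 at the 3 stages (limma, with 1 member at an unadjusted p under 0.05 for the count of 0). From growing to GV it was 0 in WT (2 at an unadjusted p under 0.05) and 2 in null oocytes under both. With median scaling 2.53% of all genes were called higher and 3.01% lower in WT growth, and 16.8% and 17.6% in null growth. From GV to MII 6 members were called in WT without the factors (3 higher, 3 lower). With median scaling 7 members were higher and 2 lower in WT, where 39.8% of all genes were higher and 35.5% lower, and 8 were called in null oocytes, 7 higher and 1 lower, where 36.8% and 30.1% were. The interaction called 2 members from GV to MII without the factors, 0 from growing to GV with median scaling (1 at an unadjusted p under 0.05) and 2 from growing to GV with no filter. Of all genes, this interaction from growing to GV called 2.01% higher and 2.41% lower with median scaling. With no filter it called 268 of 23230 genes higher and 1033 lower. Log2 differences that changed sign from GV to MII in WT were, without the factors and then with median scaling, Dnmt3a 0.41 and 1.05, Dnmt3b 0.73 and 1.06, Kdm1b 0.0036 and 0.68, Dppa3 0.70 and 1.40, Trim28 0.52 and 1.18, and Tet3 1.05 and 1.72, with Uhrf1 (0.41) under median scaling. In null oocytes they were Dnmt3a 0.34 and 0.81, Dnmt3b 0.64 and 0.88, Uhrf1 0.22 and 0.73, Dppa3 0.65 and 1.16, Trim28 0.62 and 1.11 and Tet3 1.05 and 1.53, with Kdm1b 0.0248 and Dnmt1 0.40 under median scaling. From growing to GV in null oocytes they were Dppa3 0.54 and 0.63 and Tet3 0.0685 and 0.15. The interaction from GV to MII turned for Tet3 (-0.0010 and -0.19), Kdm1b (-0.48 and -0.66), Zfp57 (-0.63 and -0.81), Dnmt3a (-0.06 and -0.25), Dnmt3b (-0.09 and -0.18) and Dppa3 (-0.06 and -0.24), and for Trim28 (-0.07) with median scaling. Signs of smaller differences between genotypes and in WT growth also changed. The ERCC factors and median scaling both multiply whole libraries. Which scale is nearest to the amount per oocyte was not tested.

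Leaving out each library in turn left 1 library in a group. Calls of some members then changed between genotypes at each stage and during growth in both genotypes. Some also changed from GV to MII in null oocytes and in the interaction from GV to MII. No member's call changed from GV to MII in WT oocytes or in the interaction from growing to GV. In WT growth Dnmt3l, Kdm1b and Uhrf1 lost their calls without single libraries. The deviations of same-numbered libraries of a stage correlated by 0.188, -0.11 and 0.0849, so these did not show a pairing of the samples. The ERCC factors may still link same-numbered libraries, since the study sets each sample against WT growing oocytes. Both WT growing libraries had a factor of 1, although the study lists different ERCC shares for them. The main fit had no replicate term, and this link was not tested other than by a replicate block. With a replicate block the counts were 2, 5 and 4 between genotypes, and Dppa3 was added at the GV stage (limma, Benjamini-Hochberg adjusted p = 0.00563). From GV to MII the block called 6 members lower in null oocytes, where 70.3% of all genes were called lower and 0.27% higher. In the interaction it called 6 members higher, where 35.4% of all genes were called higher and 0.748% lower. The fit on the compared libraries alone lost Zfp57 at MII. With no filter, Dppa3 in growing and Zfp57 in MII oocytes lost their calls and Tet3 in growing oocytes gained one. With a mean of at least 5 FPKM, Dnmt3b was not tested. With no counts, the limit set by depth on Dnmt3b, near 1 FPKM at MII, is unknown.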
